A study of Mus musculus with 6 samples.

Results

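The mouse MHC region and antigen-presentation genes were taken from the count table as every symbol beginning with H2-, together with B2m, Tap1, Tap2, Tapbp, Cd74, Ciita, Nlrc5, Psmb8, Psmb9, Psmb10 and Cd1d1. Of 55 such symbols among the 24054 genes of the table, 48 had at least 10 reads summed over the 6 libraries and make up the set. Messenger RNA was sequenced from whole thymus, with 3 libraries from K5-rtTA:TetO-RANKL mice and 3 from control mice. In the K5-rtTA:TetO-RANKL mice the keratin 5 promoter drives rtTA, a doxycycline-dependent activator, which switches on a TetO-linked transgene for RANKL, the TNF family cytokine encoded by Tnfsf11, in basal and medullary epithelial cells. The control mice carried 1 of the transgenes (monogenic), and both groups took doxycycline in their diet and drinking water. The labels conflict on the schedule: one text has doxycycline last 1 week and begin when the mice were 8 weeks old, the other 2 weeks from 9 weeks. Neither text gives the strain or the MHC haplotype, and nothing states that the libraries came from separate animals, so the p-values reflect only how far these samples differ among themselves, which may be technical spread.

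Class I molecules pair a heavy chain with beta-2-microglobulin and show peptides that the proteasome cuts and the TAP transporter carries into the endoplasmic reticulum. Classical, class Ia, heavy chains are made by most cells and are read by CD8 T cells, whereas the non-classical, class Ib, chains of the Q, T and M regions and Cd1d1 are more restricted in where they are made and in what they bind. Class II molecules pair an alpha with a beta chain, are escorted by the invariant chain Cd74 and receive peptides in endosomes, and in the thymus they are carried by epithelium, dendritic cells and B cells and select CD4 T cells. The coactivators Ciita and Nlrc5 act at class II and class I promoters through a module of short boxes that bind RFX, CREB and NF-Y.

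Class Ia and class II genes rose in RANKL thymus, and class Ib genes went both ways. Of the 41 genes with enough reads to test, 22 (53.7%) rose in RANKL thymus, against 33.8% of the 16096 genes tested, and 9 (22%) fell, against 29.6% of all genes tested. A gene is said to rise or fall where the adjusted p of edgeR's quasi-likelihood test, taken over all 16096 genes, was below 0.05. Both class Ia genes tested rose, and so did 9 of 10 class II genes and Cd74, with a median log2 fold change of 1.51 for class II. Of 16 class Ib genes tested, 7 fell and 5 rose, and the 3 largest falls in the whole set, in H2-T3, H2-Q1 and H2-Q2, were among them. All 5 class Ib rises were in the M region. Of these, H2-M5, H2-M10.1 and H2-M10.5 had few control reads, and the H2-M3 call was lost when certain single libraries were left out. The median log2 fold change was 0.69 over the 41 genes and -0.02 over all genes tested. Over all genes tested, 63.4% were called in one direction or the other. The 2 groups of libraries did not overlap in 29 of the 41 genes (70.7%), near the 70.1% of all genes tested. Called changes of at least 2-fold numbered 17 upward (41.5%) and 6 downward (14.6%), against 28.4% and 15.3% of all genes tested. Larger changes leaned the other way. At 4-fold or more, 4 rose (9.76%) and 4 fell (9.76%), against 17.2% and 3.43% of all genes tested. At 8-fold or more, 1 rose (2.44%) and 3 fell (7.32%), against 9.23% and 0.926%. The rises of at least 4-fold were in H2-Eb2, H2-M5, H2-M10.1 and H2-M10.5, and that of at least 8-fold was in H2-M10.5. The M-region genes among them had 0 to 11 reads in a control library and could enter the test through their RANKL reads. The upward counts at these sizes are therefore descriptions.

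**Figure D1:**
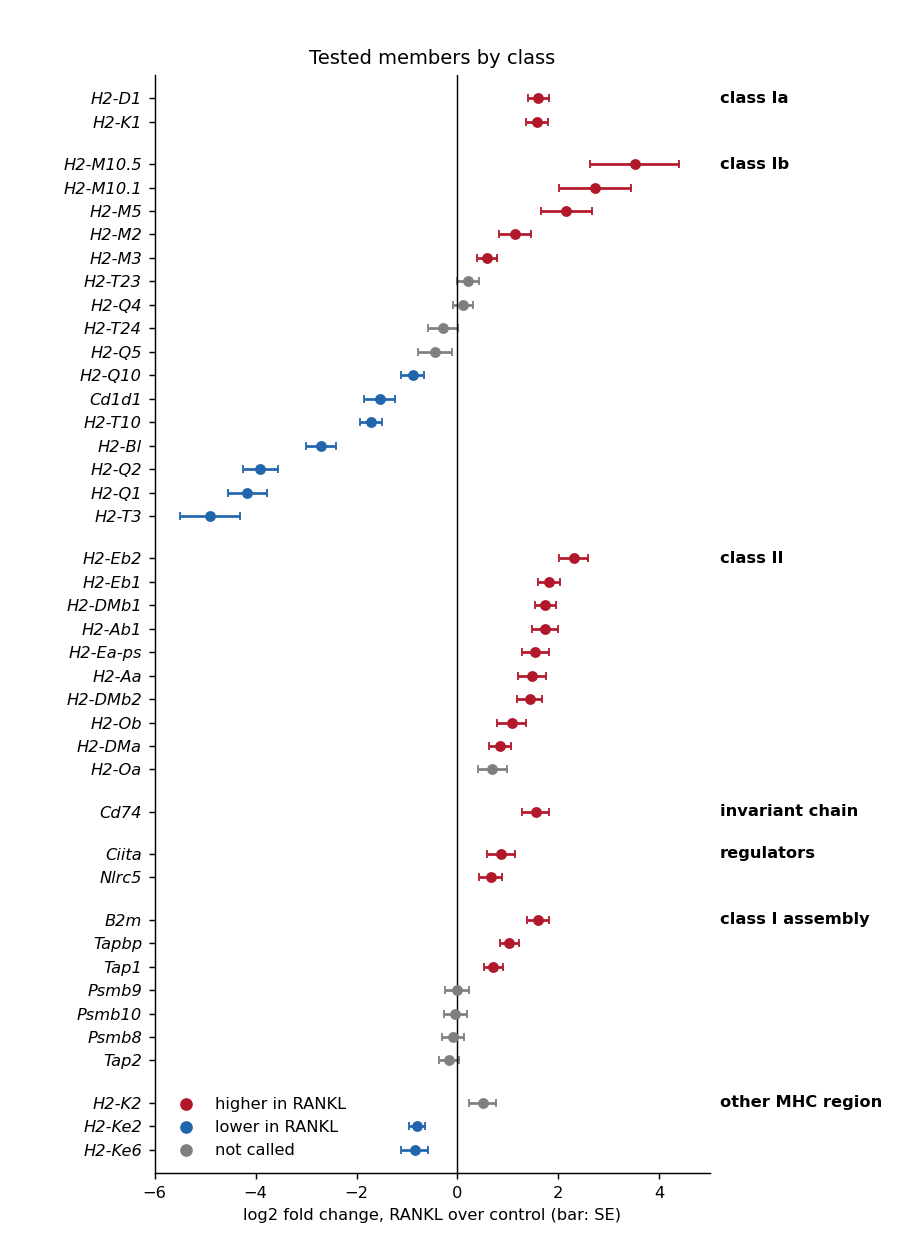
Log2 fold change, RANKL over control, of the 41 tested genes, grouped by class and ordered by size, with bars for 1 standard error; red marks genes higher in RANKL, blue lower and grey not called. Class Ia and class II sit to the right of 0, and class Ib runs from -4.91 for H2-T3 to 3.51 for H2-M10.5.

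RANKL libraries held 18254870 to 25357060 reads and control libraries 18654395 to 21453466, so that 3 reads equalled 0.122 to 0.161 CPM (reads scaled to a common library size after TMM adjustment). Tnfsf11, the induced gene, had 3334, 4812 and 2390 CPM in RANKL libraries and 6.01, 6.34 and 8.89 CPM in control libraries. The summed level of 9 markers of double-positive thymocytes, the cortical precursors that carry CD4 and CD8, was 187, 410 and 851 CPM in RANKL libraries and 8997 to 10200 CPM in control libraries. Sums of medullary epithelial markers were 4202 to 5566 CPM in RANKL and 518 to 647 CPM in control libraries, and those of cortical epithelial markers 1008 to 1590 CPM in RANKL and 4007 to 5595 CPM in control libraries. Ctsl was the largest part of the cortical sum in RANKL libraries, with 858, 1487 and 1187 CPM. Its log2 fold change was -0.905, and those of the other cortical markers ran from -1.18 for Ly75 to -5.95 for Psmb11. Of the thymus identity genes, Foxn1 was present in every library and rose in RANKL (log2 fold change 0.86, edgeR adjusted p = 0.0166), while Cd3e, Lck, Cd4, Cd8a and Prss16 fell. In whole tissue, fewer cells of a type and less RNA per cell cannot be told apart.

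Promoter stretches of genes that represent the 3 outcomes are shown first: H2-K1 and H2-D1 (class Ia) and H2-Aa and H2-Eb1 (class II) rose, H2-T3 and H2-Q2 (class Ib) fell, and H2-Q4 (class Ib) was not called. Each runs 5′ to 3′ on the gene's strand over 210 bases, 190 before the RefSeq start and 20 from it, in GRCm38.p6. Capitals mark 4 motifs searched on both strands: the Y box CTGATTGG, which NF-Y binds, the X2 core TGACG, which CREB family factors bind, the kappa B site GGGATTCCC of class I genes, and the interferon response core GTTTCNNTT. A match is a run of letters and was not tested for binding.
H2-K1: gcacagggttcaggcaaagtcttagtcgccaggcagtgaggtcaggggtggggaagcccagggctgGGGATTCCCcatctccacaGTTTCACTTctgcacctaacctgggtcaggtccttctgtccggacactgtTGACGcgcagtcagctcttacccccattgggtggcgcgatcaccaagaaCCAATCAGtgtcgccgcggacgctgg
H2-D1: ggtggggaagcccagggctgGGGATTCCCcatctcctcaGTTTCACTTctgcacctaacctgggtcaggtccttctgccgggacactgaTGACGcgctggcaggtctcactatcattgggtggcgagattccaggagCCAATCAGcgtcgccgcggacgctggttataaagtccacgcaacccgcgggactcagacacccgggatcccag
H2-Aa: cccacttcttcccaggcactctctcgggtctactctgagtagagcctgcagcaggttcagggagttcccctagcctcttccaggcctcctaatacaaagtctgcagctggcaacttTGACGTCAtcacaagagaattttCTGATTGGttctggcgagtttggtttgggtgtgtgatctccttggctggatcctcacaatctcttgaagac
H2-Eb1: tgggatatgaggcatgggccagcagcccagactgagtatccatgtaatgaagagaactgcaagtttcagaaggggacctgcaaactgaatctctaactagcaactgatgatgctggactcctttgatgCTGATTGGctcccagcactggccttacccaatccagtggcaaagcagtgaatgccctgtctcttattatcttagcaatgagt
H2-T3: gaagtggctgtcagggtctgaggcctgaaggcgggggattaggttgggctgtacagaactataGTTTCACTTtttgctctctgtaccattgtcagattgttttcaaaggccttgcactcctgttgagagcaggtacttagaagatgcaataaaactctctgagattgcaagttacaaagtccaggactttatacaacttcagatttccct
H2-Q2: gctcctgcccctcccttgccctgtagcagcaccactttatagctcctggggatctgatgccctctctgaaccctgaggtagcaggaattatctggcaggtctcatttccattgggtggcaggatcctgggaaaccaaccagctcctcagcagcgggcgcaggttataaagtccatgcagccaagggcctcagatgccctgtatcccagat
H2-Q4: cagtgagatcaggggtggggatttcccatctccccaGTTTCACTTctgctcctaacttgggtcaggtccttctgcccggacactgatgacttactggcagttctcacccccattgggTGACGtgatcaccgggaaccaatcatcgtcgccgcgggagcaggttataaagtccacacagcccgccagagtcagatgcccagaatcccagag
The stretches lie at chr17:34000314-34000523 (minus strand) for H2-K1, chr17:35262904-35263113 (plus) for H2-D1, chr17:34287804-34288013 (minus) for H2-Aa and chr17:34305677-34305886 (plus) for H2-Eb1. Those of the other three lie at chr17:36190132-36190341 (minus) for H2-T3, chr17:35342117-35342326 (plus) for H2-Q2 and chr17:35379427-35379636 (plus) for H2-Q4.

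H2-K1 and H2-D1 held all 4 motifs in the same order, with the kappa B site first, then the interferon response core, the X2 core and the Y box. The first base of the kappa B site lay 118 bases before that of the Y box in H2-K1 and 117 in H2-D1. The Y box began 6 bases before the start in H2-K1, 53 in H2-D1, 51 in H2-Aa and 62 in H2-Eb1, with the H2-K1 position counted from one of its 2 annotated starts. In H2-Aa the 2 X2 matches, one on each strand, overlap as TGACGTCA. H2-T3 held the interferon response core alone, H2-Q4 that core and the X2 core, and the H2-Q2 stretch held none of the 4 runs of letters. Windows of 300 bases, 250 before the start and 50 from it, were listed by RefSeq for 33 of the 48 genes and for 27025 mouse genes in all. The Y box was found in 16 of the 33 genes and in 4.70% of all windowed genes, the interferon response core in 11 of 33 and in 6.61% of all, and the X2 core in 13 of 33 and in 23% of all. The kappa B site was found in 2 of the 33, H2-K1 and H2-D1, and in 0.414% of all. Only the exact letters given for each motif were searched, so variant sites in the other genes were not counted. Only 3 of 27025 genes held all 4 motifs, H2-K1, H2-D1 and H2-Q7, the last of which had 0 reads in every library here. By outcome, the Y box was in 8 of 17 windowed genes that rose, 0 of 4 that fell and 3 of 6 that were not called, and the X2 core in 9 of 17, 0 of 4 and 2 of 6 in the same order. The interferon response core was in 6 of 17 that rose and in 3 of 4 that fell. Only 4 of the 9 genes that fell had a window, H2-T3, H2-Q2, H2-Q10 and H2-Ke6. Those are too few to compare genes that fell with genes that rose.

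Among class Ia genes, H2-K1 and H2-D1, the classical heavy chains, rose together, by 2.99-fold and 3.04-fold. H2-K1 (chromosome 17, 33996012 to 34000619, GRCm38) had 4007, 2605 and 3400 CPM in RANKL libraries and 1100, 971 and 1277 CPM in control libraries. Every RANKL library lay above every control library, and the log2 fold change was 1.58 ± 0.22 (SE; edgeR adjusted p = 0.000215). H2-D1 (chromosome 17, 35263094 to 35267497) had 2666, 2080 and 2747 CPM in RANKL libraries and 728, 752 and 982 CPM in control libraries, again without overlap, with a log2 change of 1.61 ± 0.21 (SE; edgeR adjusted p = 0.000136). The ratio of H2-K1 to H2-D1, each per kilobase of exon, was 1.09 to 1.32 in RANKL libraries and 1.13 to 1.33 in control libraries, so the proportion of the 2 chains overlapped between groups. H2-L, also listed as a class Ia gene, had 2 to 12 reads in RANKL libraries and 7 to 8 in control libraries and was not tested.

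B2m, the light chain that classical class I heavy chains need, rose as well. It had 4916, 3326 and 4418 CPM in RANKL libraries and 1303, 1246 and 1659 CPM in control libraries. The groups did not overlap and the log2 fold change was 1.59 ± 0.22 (SE; edgeR adjusted p = 0.000212), or 3.01-fold. Per kilobase, B2m stood at 2.28 to 2.38 times the sum of H2-K1 and H2-D1 in RANKL libraries and at 2.31 to 2.37 times in control libraries, so the 2 ranges overlapped while the level of each gene differed. B2m lies on chromosome 2 (122147687 to 122153082), outside the MHC region.

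**Figure D2:**
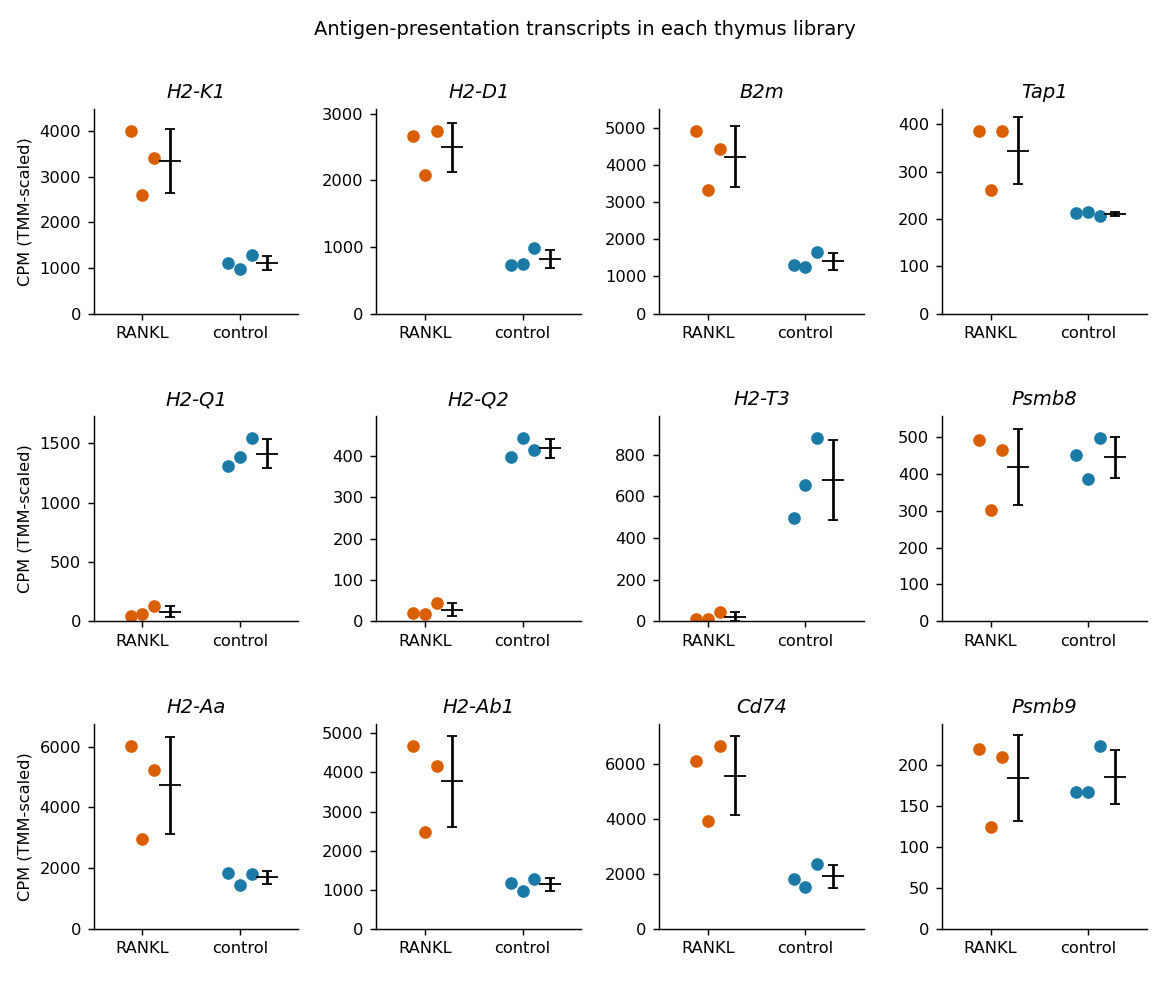
CPM of 12 genes in each of 3 RANKL (orange) and 3 control (blue) libraries, with the mean and 1 SD as a black bar; each panel has its own axis from 0. The class Ia genes, B2m, Tap1 and the class II genes sit higher in RANKL without overlap, H2-Q1, H2-Q2 and H2-T3 lower without overlap, and Psmb8 and Psmb9 overlap.

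No class Ib gene of the Q and T regions was called higher. Of 5 Q-region genes 3 fell and 2 were not called, and of 5 T-region genes 3 fell and 2 were not called. H2-T3, which encodes the thymus leukemia antigen, a ligand of the CD8 alpha homodimer, fell furthest. It had 11.4, 10.8 and 45.3 CPM in RANKL libraries and 499, 654 and 880 CPM in control libraries. The third RANKL library was the highest of its group and still lay below every control library, and the level was 30.1-fold lower in RANKL (log2 fold change -4.91 ± 0.60, SE; edgeR adjusted p = 0.000118), or -5.91 without that library. H2-T3 lies on chromosome 17 at 36185571 to 36190151.

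H2-Q1 and H2-Q2, neighbouring Q-region heavy chains, fell with it. H2-Q1 (chromosome 17, 35320525 to 35328142) had 47.8, 56.7 and 132 CPM in RANKL libraries and 1311, 1388 and 1545 CPM in control libraries, 18-fold lower in RANKL (log2 fold change -4.17 ± 0.39, SE; edgeR adjusted p = 2.29e-05). H2-Q2 (chromosome 17, 35342307 to 35346764) had 20.6, 18.1 and 45.2 CPM in RANKL libraries and 398, 443 and 415 CPM in control libraries, 15-fold lower in RANKL (log2 fold change -3.91 ± 0.35, SE; edgeR adjusted p = 1.8e-05). In both genes, as in H2-T3, the third RANKL library was the highest of its group, and it also had the highest sum of double-positive thymocyte markers, 851 CPM against 187 and 410 CPM in the first and second. The same library was the highest of its group in 9 of 9 double-positive thymocyte markers and in 6 of 7 cortical epithelial markers. This was not particular to those lists. The third RANKL library was also the highest in 6 of 6 markers of mature single-positive thymocytes, of which 1 fell and 5 were not called. It was the highest in 7 of 8 B cell markers and in 6 of 9 dendritic cell markers as well. All 7 cortical markers fell, among them Prss16, a thymus-specific serine protease, with 21.3, 17.8 and 99.6 CPM in RANKL libraries and 1059, 855 and 1004 CPM in control libraries. Tbata, named for its expression in thymus, brain and testis, had 34.99, 21.1 and 89.5 CPM in RANKL libraries and 474, 450.0 and 570 CPM in control libraries. The exception among the 7 was Ctsl, the most abundant of them, which was highest in the second RANKL library. The part of the lower thymocyte and cortical epithelial transcripts in the values of H2-T3, H2-Q1 and H2-Q2 was not tested. Per kilobase, H2-Q1 ranked at place 26 of the genes in RANKL libraries, at 27.6, and at place 3 in control libraries, at 495, above both class Ia genes. H2-Q1 stood at 0.0122 to 0.0399 times the level of H2-K1 per kilobase in RANKL libraries and at 1.22 to 1.47 times in control libraries. H2-Q1 and H2-Q2 share sequence: 85% of 50-base windows of H2-Q1 transcripts and 83.9% of those of H2-Q2 occurred in no other gene, and 12.9% of the H2-Q2 windows also occurred in H2-Q1.

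H2-T10, whose product is a ligand of some gamma-delta T cell receptors, and H2-Bl, a T-region gene, fell less far. H2-T10 had 196, 125 and 184 CPM in RANKL libraries and 468, 551 and 643 CPM in control libraries, with a log2 change of -1.72 ± 0.22 (SE; edgeR adjusted p = 0.000123). H2-Bl had 6.03, 3.38 and 7.02 CPM in RANKL libraries and 28.2, 39.9 and 38.8 CPM in control libraries, with a log2 change of -2.70 ± 0.29 (SE; edgeR adjusted p = 5.1e-05). Of the 50-base windows of H2-T10, 31.7% also occur in H2-T22, which had 2 reads in all, so the 2 genes' counts may not be separate. The reference annotation classes H2-T10, H2-Bl and H2-Q5 as polymorphic pseudogenes, which some strains can express and others cannot. H2-Q10, known as a secreted heavy chain of liver, fell by 0.89 on the log2 scale, with 35.5, 29.3 and 45.7 CPM in RANKL libraries and 51.6, 82.2 and 70.3 CPM in control libraries (edgeR adjusted p = 0.00655). Cd1d1, the lipid-presenting molecule of double-positive thymocytes that selects NKT cells, had 11.7, 21.2 and 26 CPM in RANKL libraries and 41.0, 55.5 and 75.2 CPM in control libraries. Its groups did not overlap, and its log2 fold change was -1.54 ± 0.31 (SE; edgeR adjusted p = 0.00189), while 19.1% of its windows also occur in its paralog Cd1d2.

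The other Q- and T-region genes were not called. H2-Q4 had the highest level per kilobase of the class Ib genes in RANKL libraries, 207 against 193 in control libraries, with 502, 457 and 656 CPM in RANKL libraries and 424, 553 and 525 CPM in control libraries (log2 fold change 0.10 ± 0.20, SE; edgeR adjusted p = 0.661). H2-T23, which encodes Qa-1, the ligand of the NK receptor NKG2A, had a log2 change of 0.21 ± 0.21 (SE; edgeR adjusted p = 0.412). H2-T24 and H2-Q5 had log2 fold changes of -0.28 and -0.45, with adjusted p of 0.424 and 0.264 by the same test. All 4 overlapped between the groups.

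All 5 M-region genes tested rose, and all 5 were of low or middling abundance. A low gene could be tested only where it had reads in at least one group, so this count is a description. H2-M2 had 75.1, 26.8 and 52.5 CPM in RANKL libraries and 23.5, 22.3 and 24.5 CPM in control libraries (log2 fold change 1.13 ± 0.32, SE; edgeR adjusted p = 0.0105). H2-M3, which presents N-formylated peptides of bacteria and mitochondria, had 54.4, 42.7 and 59.6 CPM in RANKL libraries and 28.2, 35.1 and 40.7 CPM in control libraries (log2 fold change 0.59 ± 0.20, SE; edgeR adjusted p = 0.0243). The H2-M3 call was lost when RANKL 1, RANKL 3, control 1 or control 2 was left out, with edgeR adjusted p of 0.0592 to 0.0904. H2-M5 rose by 2.16 ± 0.50 (log2 fold change, SE; edgeR adjusted p = 0.00414) on 43, 27 and 73 reads in RANKL libraries and 10, 9 and 11 reads in control libraries. H2-M10.1 and H2-M10.5 belong to a family known from vomeronasal sensory neurons. H2-M10.1 had 27, 25 and 42 reads in RANKL libraries and 7, 0 and 6 in control libraries (log2 fold change 2.72 ± 0.72, SE; edgeR adjusted p = 0.00811), and 2.13 without control 2. H2-M10.5 had 19, 15 and 19 reads in RANKL libraries and 4, 0 and 0 in control libraries (log2 fold change 3.51 ± 0.88, SE; edgeR adjusted p = 0.00617). Both rest on few reads and a control group at or near 0. Without control 3 the H2-M10.5 value was 2.92, and without control 1 no control reads remained, so RANKL was at least 11.3-fold higher, taking 3 reads over the control group as the floor. Another 6 M-region genes, H2-M1, H2-M9, H2-M10.2, H2-M10.3, H2-M10.4 and H2-M11, were below the filter for testing, with 193 reads in RANKL libraries and 46 in control libraries summed over the 6 genes.

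The make-up of the class I heavy chain transcripts differed between the groups. Of the summed per-kilobase level of H2 heavy chains, class Ia made 84.1%, 83.1% and 79.8% in RANKL libraries and 34.6%, 30.1% and 33.8% in control libraries. The class Ib part of that sum counts H2-T10, H2-Bl and H2-Q5, which the reference annotation classes as polymorphic pseudogenes. Class I genes also share sequence, and the handling of multiply mapped reads is not stated, so these shares may depend on it. As a share of all reads, class Ia took 0.679%, 0.454% and 0.637% in RANKL libraries and 0.175%, 0.179% and 0.220% in control libraries. Class Ib took 0.117%, 0.0882% and 0.152% in RANKL libraries and 0.327%, 0.414% and 0.433% in control libraries. Class Ia lay wholly above and class Ib wholly below the controls in these sums, which are descriptions with no test, since an exact permutation test on 3 against 3 libraries cannot give a two-sided p below 0.1.

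The classical class II alpha and beta chains rose, and so did the invariant chain. H2-Aa, the A alpha chain (chromosome 17, 34282744 to 34287823), had 6029, 2941 and 5217 CPM in RANKL libraries and 1824, 1445 and 1811 CPM in control libraries (log2 fold change 1.48 ± 0.27, SE; edgeR adjusted p = 0.00114). H2-Ab1, its beta chain partner (chromosome 17, 34263227 to 34269418), had 4686, 2469 and 4172 CPM in RANKL libraries and 1178, 955 and 1280 CPM in control libraries (log2 fold change 1.73 ± 0.26, SE; edgeR adjusted p = 0.000361). Cd74, the invariant chain (chromosome 18), had 6099, 3939 and 6668 CPM in RANKL libraries and 1821, 1519 and 2369 CPM in control libraries (log2 fold change 1.55 ± 0.26, SE; edgeR adjusted p = 0.000667). None of the 3 overlapped between groups, and the second RANKL library was the lowest of its group in each. Per kilobase, H2-Ab1 stood at 1.15 to 1.24 times H2-Aa in RANKL libraries and at 0.955 to 1.05 times in control libraries, without overlap, and Cd74 at 2.29 to 3.03 times H2-Aa in RANKL libraries and 2.26 to 2.96 times in control libraries, with overlap.

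The E chains rose as well and were less abundant. H2-Eb1, the E beta chain, had 151, 91.3 and 146 CPM in RANKL libraries and 33.3, 34.2 and 42.3 CPM in control libraries (log2 fold change 1.82 ± 0.22, SE; edgeR adjusted p = 9.22e-05). H2-Eb2, a second E beta gene, had 132, 70.4 and 116 CPM in RANKL libraries and 28.3, 15.6 and 20.3 CPM in control libraries and rose most of the class, 4.95-fold (log2 fold change 2.31 ± 0.29, SE; edgeR adjusted p = 0.000107). H2-Ea-ps, the E alpha gene that the reference annotation classes as a polymorphic pseudogene, had 60.6, 39.9 and 73.0 CPM in RANKL libraries and 14.6, 26.1 and 18.7 CPM in control libraries. All 6 libraries held E alpha reads, at 0.752 to 0.940 times the H2-Eb1 level per kilobase in RANKL libraries and 0.822 to 1.43 times in control libraries, and all 50-base windows of its transcripts were unique. Its log2 fold change was 1.54 ± 0.28 (SE; edgeR adjusted p = 0.000912).

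Of the peptide editors, H2-DMa, H2-DMb1 and H2-DMb2, the chains of DM, which exchanges peptides on class II, rose, and so did H2-Ob, the beta chain of DO, which inhibits DM. H2-DMb1 had 108, 66.7 and 90.8 CPM in RANKL libraries and 22.3, 26.8 and 30.1 CPM in control libraries (log2 fold change 1.74 ± 0.21, SE; edgeR adjusted p = 9.56e-05). H2-DMb2 rose by 1.43 ± 0.24 and H2-DMa by 0.85 ± 0.21 (log2 fold change, SE), with edgeR adjusted p of 0.000698 and 0.0065. The DM beta genes share 50-base windows, 22.7% of those of H2-DMb1 occurring in H2-DMb2, so reads may have been split between them. H2-Ob had 48.9, 32.8 and 72.6 CPM in RANKL libraries and 18.6, 28.6 and 26 CPM in control libraries (log2 fold change 1.08 ± 0.29, SE; edgeR adjusted p = 0.00867). H2-Oa, the DO alpha chain, had 58.4, 26 and 52.1 CPM in RANKL libraries and 26.6, 25 and 32.8 CPM in control libraries, overlapping through the second RANKL library, and was not called (log2 fold change 0.69 ± 0.28, SE; edgeR adjusted p = 0.0543). Without that library H2-Oa had a log2 fold change of 0.98 and an adjusted p of 0.0028. Per kilobase, the ratio of H2-DMb1 to H2-Ob was 4.01 to 7.04 in RANKL libraries and 3 to 3.83 in control libraries, while that of H2-DMa to H2-Oa was 1.19 to 1.62 in RANKL libraries and 1.11 to 1.26 in control libraries, with overlap.

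One library recurs in these values. The second RANKL library, RANKL 2, was the lowest of its group in 22 of the 22 genes that rose and in 11 of the 11 class II genes and Cd74. The share over all genes that rose was not taken, so these counts do not set the genes apart from others. RANKL 2 was the highest of its group in Tnfsf11, with 4812 CPM against 3334 and 2390 CPM in RANKL 1 and RANKL 3. Its summed medullary epithelial markers were also the highest, with 5566 CPM against 4202 and 4322 CPM. Marker by marker, RANKL 2 was the highest in 3 of the 7 medullary markers tested and the lowest in 2, Aire and Fezf2. It was also the highest in the summed neutrophil markers, at 4444 CPM against 1871 and 2272 CPM, and the lowest in the summed interferon-induced genes, at 1633 CPM against 2838 and 2608 CPM. Without RANKL 2, 26 genes of the set rose and 8 fell, and the log2 fold change was 1.74 for H2-Aa, 1.74 for H2-K1 and 1.74 for B2m. The part of these differences among libraries in the results was not tested.

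Markers of the cells that carry class II were mixed. Over all genes tested, 33.8% rose and 29.6% fell. Of 9 dendritic cell markers 6 rose and 2 fell, with sums of 1123 to 1290 CPM in RANKL libraries and 277 to 357 CPM in control libraries. The largest parts of the sum were Ccl22, with means of 540 CPM in RANKL and 129 CPM in control libraries, and Sirpa, with 446 and 117 CPM. The sum therefore mainly follows those genes, and Flt3 was not called. The markers that fell were Xcr1 and Clec9a of the cross-presenting subset. All 7 macrophage markers tested rose, with sums of 2296 to 3395 CPM in RANKL libraries and 1108 to 1398 CPM in control libraries. Of 8 B cell markers 1 rose, Fcrla, and 7 were not called, with sums of 92.7 to 181 CPM in RANKL libraries and 144 to 158 CPM in control libraries, which overlap. No defining marker of these 3 lists was at 0 in all libraries. The medullary epithelial markers rose in 7 of 7 tested, and Ccl21a had 0 reads throughout. The part of these cell types in the class II and class Ia values was not tested.

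Class I assembly split into genes that rose and genes that were not called. Tapbp, tapasin, which holds class I to the TAP transporter, had 598, 418 and 585 CPM in RANKL libraries and 276, 234 and 276 CPM in control libraries (log2 fold change 1.03 ± 0.19, SE; edgeR adjusted p = 0.00116). Tap1, one TAP subunit, had 387, 262 and 386 CPM in RANKL libraries and 212, 215 and 206 CPM in control libraries (log2 fold change 0.71 ± 0.19, SE; edgeR adjusted p = 0.00782). Tap2, its partner subunit, had 312, 250 and 403 CPM in RANKL libraries and 354, 340 and 392 CPM in control libraries and was not called (log2 fold change -0.17 ± 0.20, SE; edgeR adjusted p = 0.472). The partners differed in their ratio: Tap1 stood at 0.660 to 0.858 times Tap2 per kilobase in RANKL libraries and at 0.362 to 0.436 times in control libraries.

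The 3 inducible catalytic subunits of the immunoproteasome were not called. Psmb8 had 492, 302 and 466 CPM in RANKL libraries and 453, 387 and 497 CPM in control libraries (log2 fold change -0.09 ± 0.22, SE; edgeR adjusted p = 0.747). Psmb9 had 219, 124 and 209 CPM in RANKL libraries and 166, 166 and 223 CPM in control libraries (log2 fold change -0.01 ± 0.23, SE; edgeR adjusted p = 0.976). Psmb10 had a log2 change of -0.04 ± 0.23 (SE; edgeR adjusted p = 0.884). Set against the constitutive subunit each replaces, the groups overlapped in all 3 pairs. Psmb8 stood at 2.08 to 3.68 times Psmb5 per kilobase in RANKL libraries and 2.75 to 3.46 times in control libraries, Psmb9 at 0.350 to 0.613 times Psmb6 in RANKL and 0.453 to 0.482 times in control libraries, and Psmb10 at 1.31 to 2.20 times Psmb7 in RANKL and 1.61 to 1.91 times in control libraries. The second RANKL library gave the lowest value in each pair. Psmb9 and Tap1 lie next to each other on chromosome 17, at 34182030 to 34187330 and 34187556 to 34197225, on opposite strands.

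**Figure D3:**
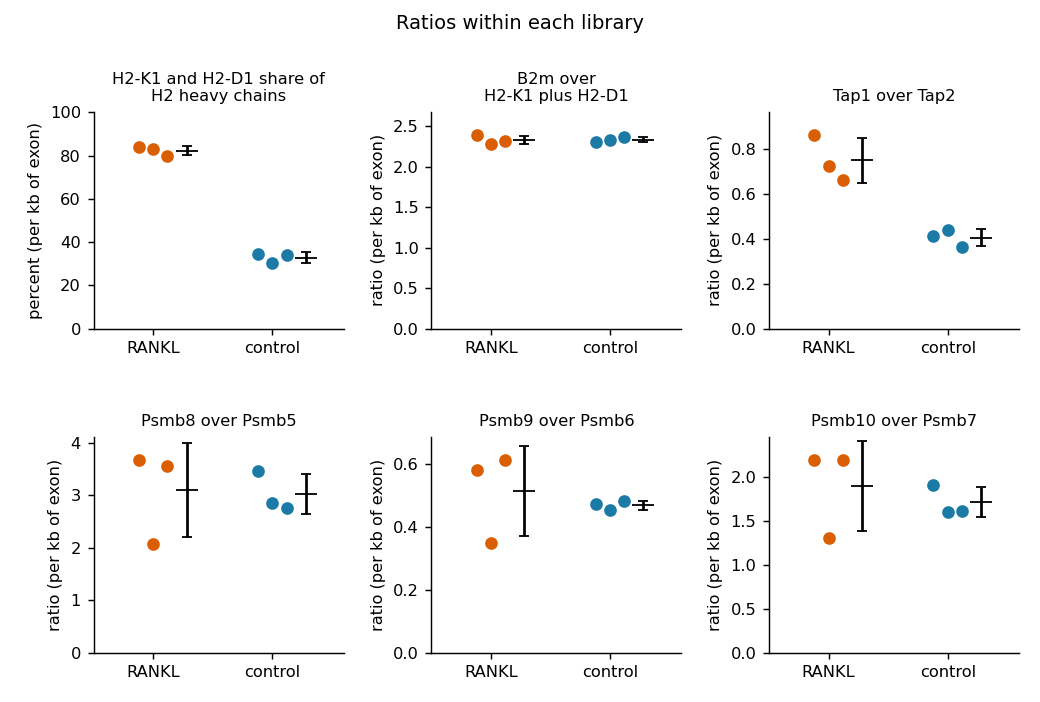
Ratios of levels per kilobase of exon within each library, for 3 RANKL (orange) and 3 control (blue) libraries, with the mean and 1 SD as a black bar and each axis from 0. The class Ia share of H2 heavy chains (percent) and Tap1 over Tap2 separate the groups, and B2m over class Ia and the 3 immunoproteasome ratios overlap.

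Both coactivators rose, Ciita 1.82-fold and Nlrc5 1.58-fold, but each call was lost when certain single libraries were left out. Ciita, the class II coactivator, had 149, 77.6 and 112 CPM in RANKL libraries and 82.4, 57.4 and 45.5 CPM in control libraries, overlapping through the second RANKL library (log2 fold change 0.87 ± 0.28, SE; edgeR adjusted p = 0.0199). The Ciita call was lost without control 2 (adjusted p = 0.0768) and without control 3 (adjusted p = 0.0811). Nlrc5, the class I coactivator, had 93.2, 92.2 and 135 CPM in RANKL libraries and 56.4, 87.2 and 59.7 CPM in control libraries (log2 fold change 0.66 ± 0.22, SE; edgeR adjusted p = 0.0267). The Nlrc5 call was lost without RANKL 3 (adjusted p = 0.104), control 1 (0.0875) and control 3 (0.0917). H2-K1, H2-D1, H2-Aa, H2-Ab1 and Cd74 kept their calls whichever single library was left out.

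Of 24 other regulators of MHC genes 7 rose (29.2%), 9 fell (37.5%) and 8 were not called. These shares were near the 33.8% and 29.6% of all genes tested. The box-binding factors went down or were not called: Rfxap and Rfxank of the RFX complex fell by 1.01 and 0.95, Creb1 by 1.83, and Nfya, Nfyb and Nfyc of NF-Y by 1.10, 1.67 and 0.82 on the log2 scale, while Rfx5 had -0.38 with an edgeR adjusted p of 0.127. Nfkb2 and Relb, the non-canonical NF-kappa B subunits that RANK signalling is known to engage, rose by 1.76 and 1.48 and Nfkb1 by 0.46 on the log2 scale, and Rela was not called. Ezh2, a Polycomb methyltransferase, fell by 2.57 on the log2 scale. Ifng had 1.35, 1.06 and 1.74 CPM in RANKL libraries and 0.422, 0.825 and 1.20 CPM in control libraries and was not called (edgeR adjusted p = 0.186), nor was Irf1 (adjusted p of 0.061 by the same test). Of 18 interferon-induced genes 13 rose (72.2%) and 1, Gbp4, fell (5.56%). Their median log2 fold change was 1.48, beside -0.02 over all genes tested.

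Of 20 other class I pathway genes 5 rose (25%), 5 fell (25%) and 10 were not called, beside 33.8% and 29.6% of all genes tested. Ube2l6, an enzyme of ISG15 conjugation, rose by 2.17, and the chaperones Hspa5 and Calr by 1.07 and 0.95, the proteasome activator subunit Psme2 by 0.87 and Pdia3 (ERp57) by 0.68 on the log2 scale. Psmb11, the catalytic subunit found in cortical epithelium, fell by 5.95 ± 0.67 (SE, log2 scale; edgeR adjusted p = 7.84e-05), with 1.29, 0.325 and 4.48 CPM in RANKL libraries and 130, 108 and 137 CPM in control libraries. Mr1, which presents vitamin metabolites, fell by 1.96, and Cd1d2 by 3.07 on the log2 scale. Of 15 other class II pathway genes 11 rose (73.3%) and 4 fell (26.7%). Ctss, the cathepsin that cuts the invariant chain in dendritic cells, had 1450, 1067 and 1372 CPM in RANKL libraries and 184, 162 and 234 CPM in control libraries (log2 fold change 2.75 ± 0.22, SE; edgeR adjusted p = 1.11e-05). Ctsl, which does so in cortical epithelium, fell by 0.91, with 858, 1487 and 1187 CPM in RANKL libraries and 1750, 1923 and 2942 CPM in control libraries (edgeR adjusted p = 0.0145). The tetraspanins Cd9 and Cd63 rose by 3.22 and 2.50, the asparagine endopeptidase Lgmn by 2.45 and the lysosomal thiol reductase Ifi30 by 1.80, while the endocytic receptor Ly75 fell by 1.18 on the log2 scale. March1, a ubiquitin ligase that lowers surface class II, rose by 1.08 on the log2 scale.

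**Figure D4:**
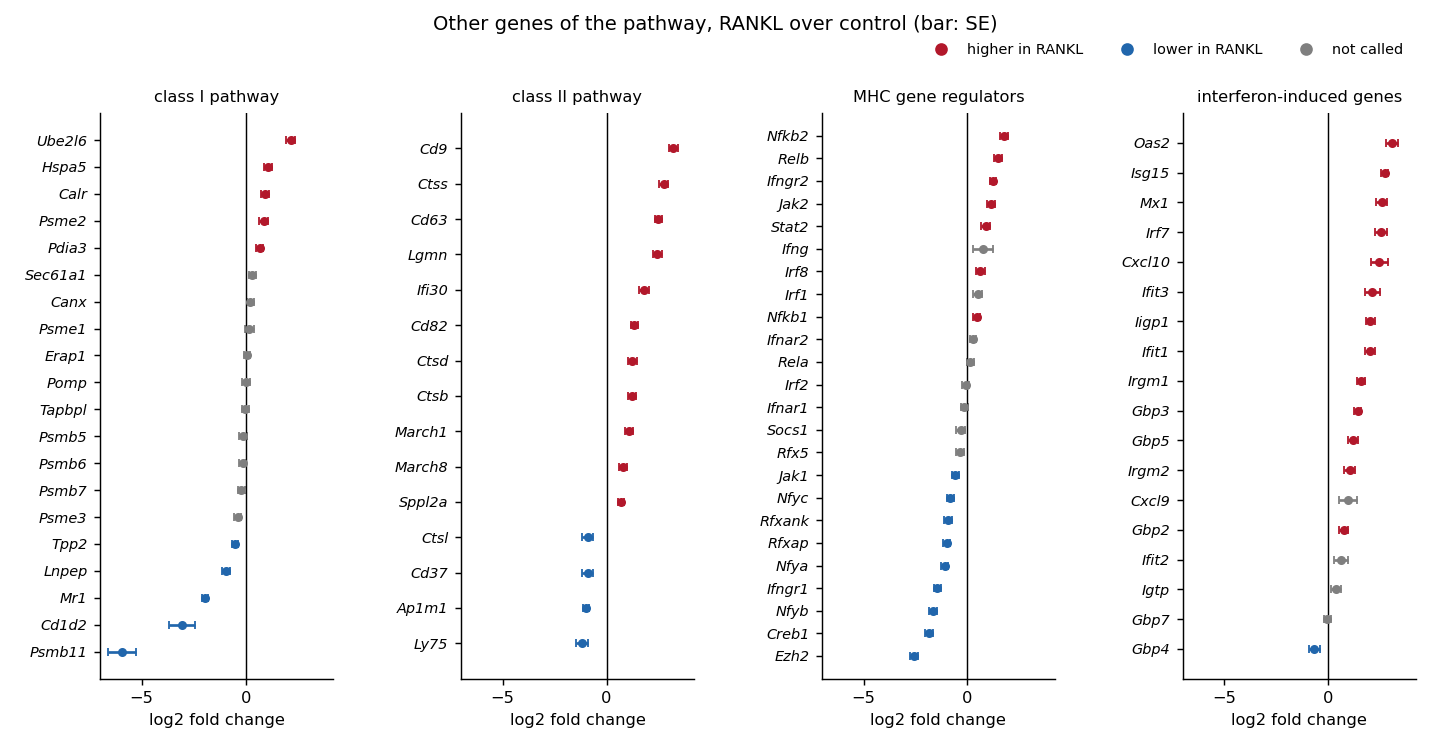
Log2 fold change, RANKL over control, of other genes of the pathway in 4 lists, with bars for 1 standard error; red marks genes higher in RANKL, blue lower and grey not called. Class II pathway and interferon-induced genes lie mostly to the right of 0, and class I pathway genes and regulators lie on both sides.

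Along chromosome 17 neighbouring genes of the set often had the same call, but class Ib was split between its regions. From H2-Oa to H2-Ea-ps, 9 of the 10 class II genes rose, with Psmb9, Psmb8 and Tap2, none of them called, and Tap1, which rose, between H2-DMb1 and H2-Ob. H2-D1 rose, and H2-Q1, the next gene of the set at 35320525, fell. The Q and T regions, up to H2-T3, held 6 falls and no gene called higher, with H2-Q4, H2-Q5, H2-T23 and H2-T24 not called. The M region beyond H2-T3 held 5 rises, of which those of H2-M5, H2-M10.1 and H2-M10.5 rest on few control reads. Among 112 other genes tested between H2-K2 and H2-M2 (33974659 to 37483554), 28.6% rose and 30.4% fell, near the 33.8% and 29.6% of all genes tested. Of the other genes carrying an H2 name, H2-Ke2, now Pfdn6, a prefoldin chaperone subunit, fell by 0.80 on the log2 scale, with 28.8, 33.6 and 33.4 CPM in RANKL libraries and 53.8, 49.8 and 63.5 CPM in control libraries (edgeR adjusted p = 0.00208). H2-Ke6, a hydroxysteroid dehydrogenase gene, fell by 0.85 (edgeR adjusted p = 0.0186), a call lost without RANKL 1, RANKL 2 or control 3 (adjusted p of 0.0727, 0.07 and 0.0718), and 70.5% of its windows also occur in another annotated gene. The pseudogene H2-K2 was not called (log2 fold change 0.50 ± 0.27, SE; edgeR adjusted p = 0.13).

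**Figure D5:**
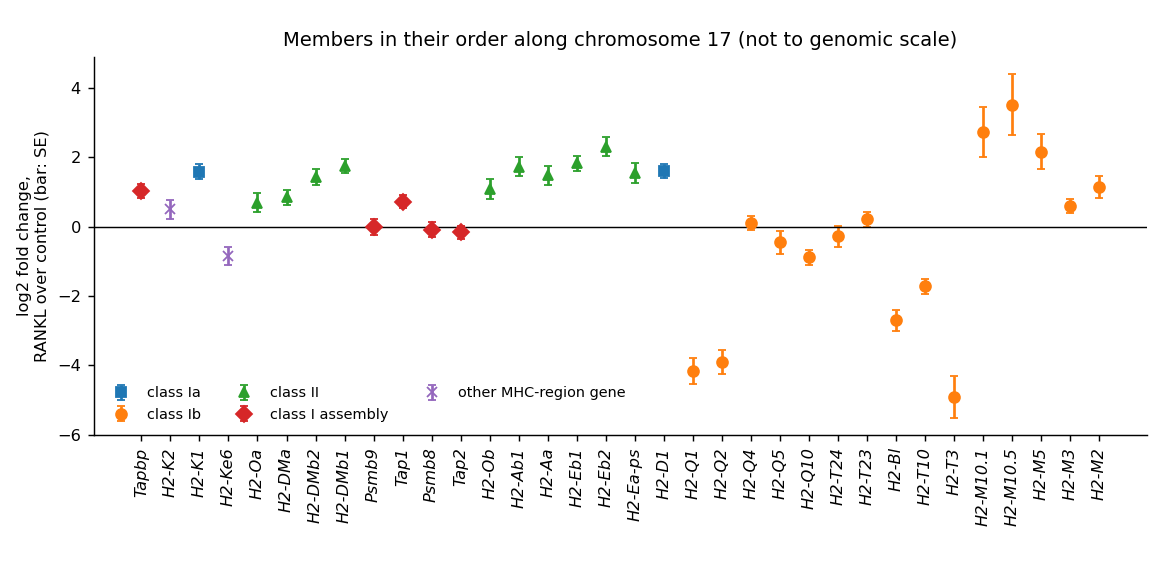
Log2 fold change, RANKL over control, with 1 standard error, of the 34 tested genes placed on chromosome 17, in their order along it and not to scale; marker shapes give the class. Class II genes are above 0, the Q and T regions from H2-Q1 to H2-T3 lie mostly below it, and the M region lies above it.

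Of the 7 symbols left out, H2-Q6, H2-Q7, H2-Q8, H2-Q9 and H2-T9 had 0 reads in every library, H2-T22 had 2 in all and H2-M10.6 had 7. Just inside the minimum of 10 reads were H2-M11 with 22, H2-M10.4 with 23, H2-M10.2 with 36, H2-M1 with 39 and H2-L with 44 reads over the 6 libraries. For H2-Q6 and H2-Q7, 68.0% and 73.6% of 50-base windows, and 89.2% and 88.0% of 100-base windows, occurred in no other gene. Mouse haplotypes differ in which class I genes they carry, and with the strain and the handling of multiply mapped reads not stated, the part of either in these zeros was not tested.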

How the data were processed

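Messenger RNA of whole thymus was sequenced in 3 RANKL and 3 control libraries, made with a stranded mRNA kit per the labels' protocols. The authors deposited raw counts, whole reads per gene. STAR and mm10 were used, per the submitters' processing notes. On the counting tool, its strand setting, the annotation and multiply mapped reads nothing is given in the sources used here, and overlapping or near-identical genes may share reads. Groups came from the genotype label, and replicate numbers follow accession order and pair nothing.

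Genes were kept by filterByExpr and scaled by TMM. The test was the robust quasi-likelihood test of edgeR 4.0.16 (R 4.3.3), two-sided and without covariates, with Benjamini-Hochberg adjustment over all 16096 genes kept. Standard errors were derived from the F statistic. The code was tested on simulated data. Levels per kilobase divide CPM by the exon length in GENCODE vM21 (GRCm38), from which the uniqueness of 50-base windows was also taken. Gene coordinates and promoters came from RefSeq. The chi-square of libraries within a group, 33.7 to 72 per degree of freedom, was far above sampling noise, and each library was counted as 1 sample.

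The genes, lists and motifs were chosen with earlier results of these data known, so counts over them are descriptions. Every gene of the set could be named. From other lists, genes were named by small p or a defining role. A gene of the regulator list is not reported here and was left out of its counts. DESeq2 1.42.0, limma 3.58.1 (voom), other scalings and filters, a stricter threshold, a 1.5-fold test, a title-number block and leaving out each library were the alternatives. Adgre1 and Ly6g had no row of that name and were left out of the marker sums. Figures were drawn with matplotlib 3.10.9.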

Additional observations from a re-analysis of the deposited data

How the results depend on the processing

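Over the 41 tested genes and the alternatives run, 663 gene-level values stayed on their side of the threshold, 5 gained a call, 27 lost one and 0 called values changed direction. Among genes of the set, 17 (1.5-fold test) to 24 (no filter) rose and 6 (1.5-fold test) to 9 fell, against 22 and 9. Class Ib rises numbered 3, against 5, at a mean CPM of at least 1 and at a threshold of 0.01. Leaving out single libraries gave 20 to 26 rises and 8 to 9 falls, and, over all genes, 5149 to 5549 rises and 3902 to 4624 falls. Over all genes the 1.5-fold test called 2654 lower instead of 4765, by its construction. Tests at 0.01 and against 1.5-fold both dropped Ciita, Nlrc5, H2-M3 and H2-Ke6, that at 0.01 also dropped H2-M2 (adjusted p = 0.0105), and the 1.5-fold test also dropped H2-Ke2, H2-DMa, Tap1 and H2-Q10. H2-M3 was not called without a low-count filter (adjusted p = 0.0529) or with the title-number block (adjusted p = 0.063). H2-Oa gained a call with upper-quartile scaling, a mean CPM of at least 1 and DESeq2 (adjusted p of 0.0373, 0.048 and 0.0377). Upper-quartile factors raised the median log2 fold change of all genes by 0.104. Depth limits the H2-M10 genes, whose control counts were 0 to 7 reads a library. The title-number block groups libraries by the range of the number in their titles and does not pair them. No paired analysis was possible because the labels give no replicate numbers.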
